A study of Mus musculus with 8 samples.

Results

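Transcripts of the Hedgehog pathway were examined in mouse embryos with reduced Isl1, in tissue dissected from the outflow tract and the right ventricle (OFT/RV). The genes were the ligand Shh, the co-receptors Gas1 and Boc, the receptor Ptch1, the transducer Smo, the transcription factors Gli1, Gli2 and Gli3, and the inhibitor Hhip. They were selected by gene symbol, with no threshold on their values but with earlier results of these data known, and were 9 of 20701 symbols in the expression table. Where a symbol had several transcripts, the one with the most counts was used. All 9 genes were listed, and 6 of them passed the filter on low counts and were tested among 13769 genes.

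Hedgehog ligands bind the receptor Ptch1, with the help of Gas1, Boc and Cdon, and this relieves the repression of the membrane protein Smo at the primary cilium. Active Smo shifts the GLI proteins from repressor to activator forms, Gli3 being the main repressor and Gli2 the main activator. Ptch1, Gli1 and Hhip are transcribed in response to the pathway in many tissues and serve as its readouts. In the embryo, Shh from the pharyngeal endoderm and the floor plate acts on second heart field progenitors and neural crest, and its loss disturbs outflow tract septation.

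RNA with poly(A) tails was sequenced from the OFT/RV of single C57BL/6 embryos at E10.5. The 4 control embryos (CTRL) were labelled as wild type, and the other 4 were homozygous for a hypomorphic allele of Isl1 (Isl1_hypo), a LIM-homeodomain transcription factor gene of second heart field progenitors. The allele is carried by every cell of the embryo, so Isl1 was not reduced in the heart alone. All 8 embryos were dissected at the same stage, and the labels do not give their sex or litter. In dissected tissue, fewer cells of a type and less RNA per cell cannot be told apart, and this holds for all values below.

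The targeted gene Isl1 (chr13:117088478-117099896, mm9) was measured first as a check of the labels. Its level in the CTRL embryos 1 to 4 was 29.6, 61.5, 46.2 and 51.3 CPM (counts scaled to library size), and in the Isl1_hypo embryos 12.7, 6.86, 7.71 and 11.4 CPM. Isl1 fell in Isl1_hypo by 2.29 on the log2 scale (SE 0.26, adjusted p = 0.0077, edgeR), and the groups did not overlap. The mean of Isl1_hypo was 20.5% of that of CTRL. Libraries held 29748458 to 46678973 counts in CTRL and 18422245 to 33050298 in Isl1_hypo. All 10 markers of myocardium were detected, and their summed level was 42938 to 52240 CPM in CTRL and 46254 to 54771 CPM in Isl1_hypo. By edgeR 1 of them passed after adjustment (Nppa, higher), against 0.269% of all tested genes. At an unadjusted p under 0.05 there were 4, 1 higher and 3 lower, against 11.9% of all tested genes. Isl1_hypo replicate 3 stood apart from the other libraries, at 72.0 on the first principal component (37.8% of the variance), where the others lay between −17.7 and 3.97. Isl1_hypo replicate 1 held transcripts of epithelial junctions, such as Cdh1 (E-cadherin) at 15.3 CPM, against at most 0.311 CPM in every other library. Values of the 9 genes that changed most without these embryos are given with and without them.

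The ligand Shh (chr5:28783355-28793641) had 0 counts in all 8 libraries. A count of 0 allows a level of up to 0.0641 to 0.0960 CPM in the CTRL libraries and 0.0948 to 0.163 CPM in the Isl1_hypo libraries, counting error only. Genes around Shh were counted, since 6 of its 10 adjoining genes had more than 500 counts over the 8 libraries. This does not show that reads of Shh itself could be counted. Its exons overlap those of the noncoding RNAs 9530036O11Rik and Gm17493 on the opposite strand, neither of which was listed. Of the other ligands, Dhh, known for its roles in testis and peripheral nerve, was measured at 27.0, 14.0, 27.2 and 21.1 CPM in CTRL. Its level in Isl1_hypo was 19.4, 20.8, 17.4 and 15.4 CPM. The groups overlapped, and the log2 fold change was −0.29 (95% interval −0.75 to 0.17, adjusted p = 0.601, edgeR). Ihh, the ligand of cartilage and gut, had 4, 7, 13 and 22 counts in CTRL and 0, 1, 0 and 0 counts in Isl1_hypo, and did not pass the filter. It is named because of these values, so that the lack of overlap, found with Isl1_hypo lower in 4.44% of all tested genes, is a description. Without the filter, edgeR gave an adjusted p of 0.273 for Ihh, which did not pass. Its lowest CTRL level, 0.128 CPM, lay below the 0.163 CPM that a count of 0 allows in Isl1_hypo replicate 1. Dhh was thus the one ligand whose transcripts could be compared, at 3.24 RPKM (depth-scaled reads per kilobase, as deposited) in CTRL and 2.60 RPKM in Isl1_hypo, whereas Ihh was at 0.0678 and 0.0023 RPKM.

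Of the co-receptors, Gas1 (chr13:60275766-60278726), which encodes a membrane-anchored protein that promotes ligand binding, had the highest level per length of all 9 genes, 8.60 RPKM in CTRL and 10.3 RPKM in Isl1_hypo. Its level was 27.7, 28.6, 73.8 and 46.1 CPM in CTRL and 62.8, 57.1, 40.7 and 53.8 CPM in Isl1_hypo. CTRL replicates 1 and 2 were low and CTRL replicate 3 was above every Isl1_hypo embryo, so the groups overlapped. The log2 fold change was 0.28 (95% interval −0.34 to 0.90, adjusted p = 0.718, edgeR). It was 0.11 without CTRL replicate 1, 0.12 without CTRL replicate 2 and 0.65 without CTRL replicate 3. Boc (chr16:44485158-44559010), an immunoglobulin superfamily co-receptor, was at 20.3, 14.3, 19.8 and 14.9 CPM in CTRL and 22.2, 10.7, 7.11 and 10.7 CPM in Isl1_hypo. Isl1_hypo replicate 1 was above all CTRL embryos and the other 3 Isl1_hypo embryos were below them. The log2 fold change of Boc was −0.46 (95% interval −1.12 to 0.20, adjusted p = 0.569, edgeR). By edgeR it was −0.87 (adjusted p = 0.159) without Isl1_hypo replicate 1 and −0.26 (adjusted p = 0.805) without Isl1_hypo replicate 3. Cdon, the paralog of Boc, was at 17.1 ± 2.30 CPM in CTRL and 14.5 ± 2.94 CPM in Isl1_hypo (SD, n = 4).

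The receptor Ptch1 (chr13:63610261-63674474) was the readout with enough counts for the test. Its level was 19.9, 16.4, 14.4 and 14.7 CPM in CTRL and 17.4, 15.9, 16.6 and 18.1 CPM in Isl1_hypo. All 4 Isl1_hypo embryos lay within the range of CTRL. The means were 16.3 ± 2.51 and 17.0 ± 0.966 CPM (SD, n = 4), and the log2 fold change was 0.06 (95% interval −0.27 to 0.39, adjusted p = 0.91, edgeR). As a fold this interval runs from 0.827 to 1.31. The 2 listed transcripts of Ptch1 differed by at most 3 counts in a library. Smo (chr6:29685694-29711365), the transducer that Ptch1 represses, was at 22.8, 26.0, 40.9 and 27.8 CPM in CTRL and 26.6, 28.1, 17.1 and 34.0 CPM in Isl1_hypo. The lowest value was that of Isl1_hypo replicate 3 and the highest that of CTRL replicate 3. The log2 fold change of Smo was −0.15 (95% interval −0.65 to 0.35, adjusted p = 0.828, edgeR), and its sign turned when either of these embryos was left out.

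Gli3 (chr13:15555068-15821859), the main repressor among the GLI factors, was lower in every Isl1_hypo embryo than in any CTRL embryo. Its level was 60.2, 56.3, 45.2 and 45.4 CPM in CTRL and 35.8, 31.1, 32.7 and 33.9 CPM in Isl1_hypo. CTRL replicates 1 and 2 were the highest, and the gap between the groups was between CTRL replicate 3 and Isl1_hypo replicate 1. The mean was 51.8 ± 7.66 CPM in CTRL and 33.4 ± 1.97 CPM in Isl1_hypo (SD, n = 4), 64.5% of CTRL. The log2 fold change was −0.63 (SE 0.13, 95% interval −0.92 to −0.34), with an unadjusted p of 5.08e-04 and an adjusted p of 0.0824 by edgeR, which did not pass the threshold of 0.05. Gli3 passed it by DESeq2 (log2 fold change −0.63, adjusted p = 0.00156) and by limma-voom with sample quality weights (−0.59, adjusted p = 0.0449). A two-sided exact permutation test, on log2 CPM, gave p = 0.0286, which is the lower limit with 70 assignments of the embryos. Among all tested genes, 0.61% had an unadjusted p at or below that of Gli3, and in 4.44% the groups did not overlap with Isl1_hypo lower. Leaving out each library in turn gave log2 fold changes of −0.70 to −0.56 with adjusted p of 0.0799 to 0.242 by edgeR.

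Markers of other cell types were measured beside Gli3, and their part in its difference was not tested. Of the 8 markers of cushion and pharyngeal mesenchyme, 7 had negative log2 fold changes, with a median of −0.37 over the 8 (edgeR). Of these markers, 2 (Twist1 and Sox9) had an unadjusted p under 0.05, against 11.9% of all tested genes, and 0 passed after adjustment (edgeR). Their summed level was 1581 to 2561 CPM in CTRL and 962 to 2623 CPM in Isl1_hypo, and these ranges overlapped. The highest sum was that of Isl1_hypo replicate 1, where Gli3 was at 35.8 CPM. Most of this sum was Col1a1, at 1008 CPM, and Col3a1, at 956 CPM. In this embryo Col1a1 was above its CTRL range of 401 to 533 CPM. Twist1, at 7.17 CPM, was below its CTRL range of 9.61 to 15.5 CPM, and the other markers of the list lay within theirs. The summed level of the 6 neural crest markers was 8.19 to 10.05 CPM in CTRL and 1.93 to 7.98 CPM in Isl1_hypo, without overlap. Dlx2 contributed most in every library, while Sox10 was at or below 0.300 CPM in every library. Tfap2b of the same list went the other way, with 1 to 5 counts in CTRL and 4 to 15 in Isl1_hypo. These few counts overlapped, while its CPM, 0.0248 to 0.107 and 0.150 to 0.815, did not. It was removed by the filter, and without the filter its adjusted p was 0.416 (edgeR). Y-linked transcripts were expressed in 1 of 4 CTRL and 3 of 4 Isl1_hypo embryos. Among embryos with them, Gli3 was at 45.2 CPM in CTRL and 32.7 to 35.8 CPM in Isl1_hypo, and among those without them at 45.4 to 60.2 CPM in CTRL and 31.1 CPM in Isl1_hypo. Each of these comparisons has a single embryo in 1 group and was not tested. Without Isl1_hypo replicates 1 and 3 together, an alternative added after the data were seen, the log2 fold change of Gli3 was −0.67 (adjusted p = 0.165, edgeR).

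**Figure D1:**
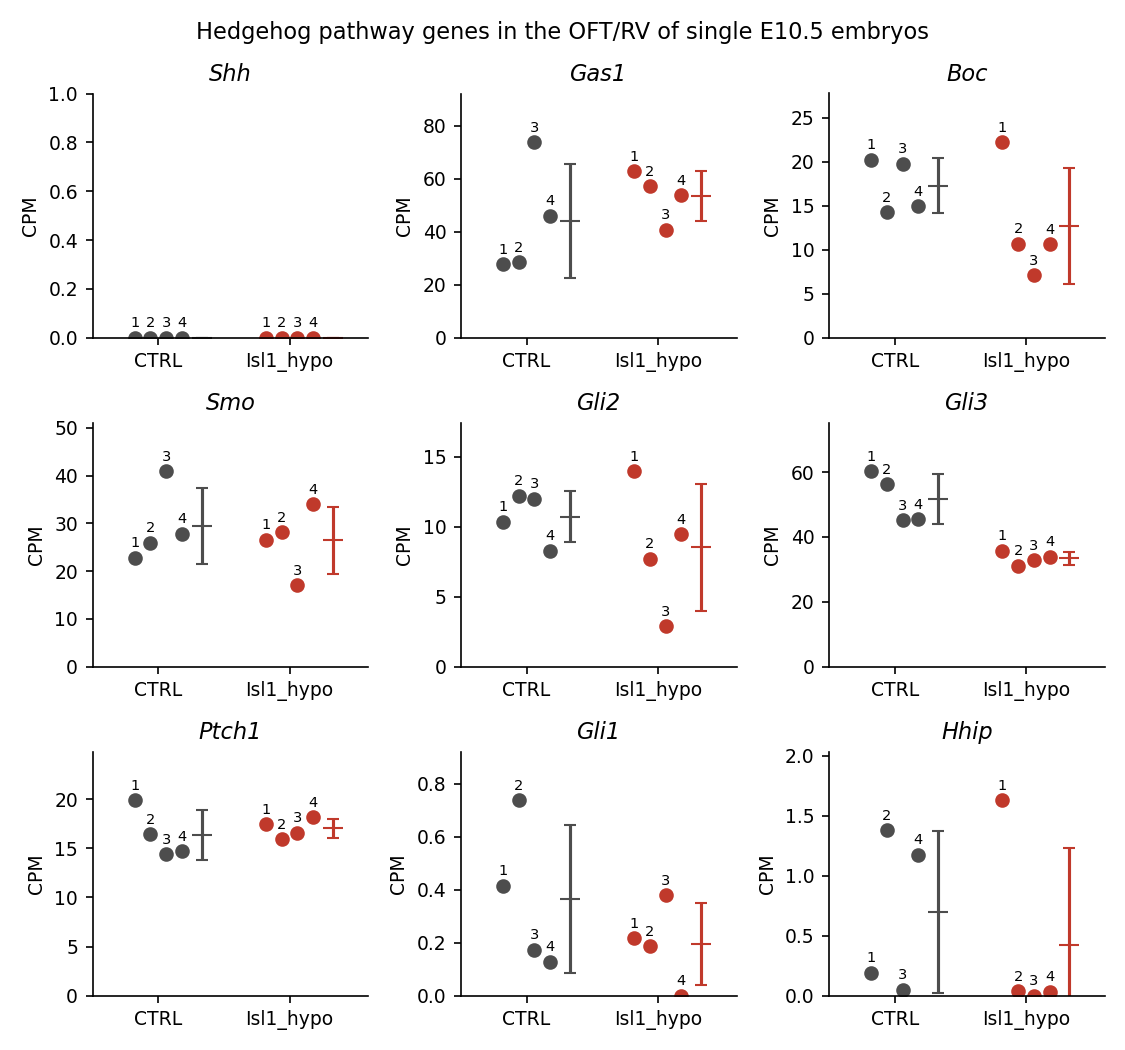
CPM of the 9 genes in each embryo, with replicate numbers beside the points and the mean ± SD of each group as a bar (cut at 0 for Hhip). The 4 Isl1_hypo embryos are below all CTRL embryos for Gli3, at 31.1 to 35.8 against 45.2 to 60.2 CPM, and overlap with CTRL for Gas1, Boc, Smo, Gli2, Ptch1, Gli1 and Hhip, while Shh is at 0 throughout.

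Gli2 (chr1:120730709-120950196), the main activator, was at 10.4, 12.2, 12.0 and 8.29 CPM in CTRL and 14.0, 7.72, 2.91 and 9.48 CPM in Isl1_hypo. The Isl1_hypo embryos spanned the CTRL range on both sides, with replicate 1 above it and replicates 2 and 3 below it. The log2 fold change was −0.34 (95% interval −1.14 to 0.46, adjusted p = 0.74, edgeR), and by edgeR it was −0.68 (adjusted p = 0.405) without Isl1_hypo replicate 1 and −0.05 (adjusted p = 0.974) without Isl1_hypo replicate 3. The spread of Gli2 in Isl1_hypo was 53.6% of the mean, against 16.9% in CTRL. For Gli3 it was 5.91% in Isl1_hypo and 14.8% in CTRL, so the embryos that differed in Gli2 had similar Gli3.

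Gli3 was the most abundant GLI transcript per length in every embryo. Its mean was 3.78 RPKM in CTRL and 2.39 RPKM in Isl1_hypo, against 0.981 and 0.771 RPKM for Gli2 and 0.0614 and 0.0322 RPKM for Gli1. The sum over the 3 GLI genes was 4.82 ± 0.709 RPKM in CTRL and 3.20 ± 0.555 RPKM in Isl1_hypo (SD, n = 4). Gli3 made up 78.3 ± 3.25% of this sum in CTRL and 75.9 ± 8.85% in Isl1_hypo, so its share overlapped between the groups while the sum, 4.08 to 5.51 against 2.60 to 3.91 RPKM, did not. The share was the highest, 87.9%, in Isl1_hypo replicate 3, the embryo with the least Gli2. The ratio of Gli3 to Ptch1, chosen after the values were seen and therefore not tested, was 2.63, 2.97, 2.72 and 2.67 in CTRL. It was 1.78, 1.69, 1.71 and 1.62 in Isl1_hypo.

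**Figure D2:**
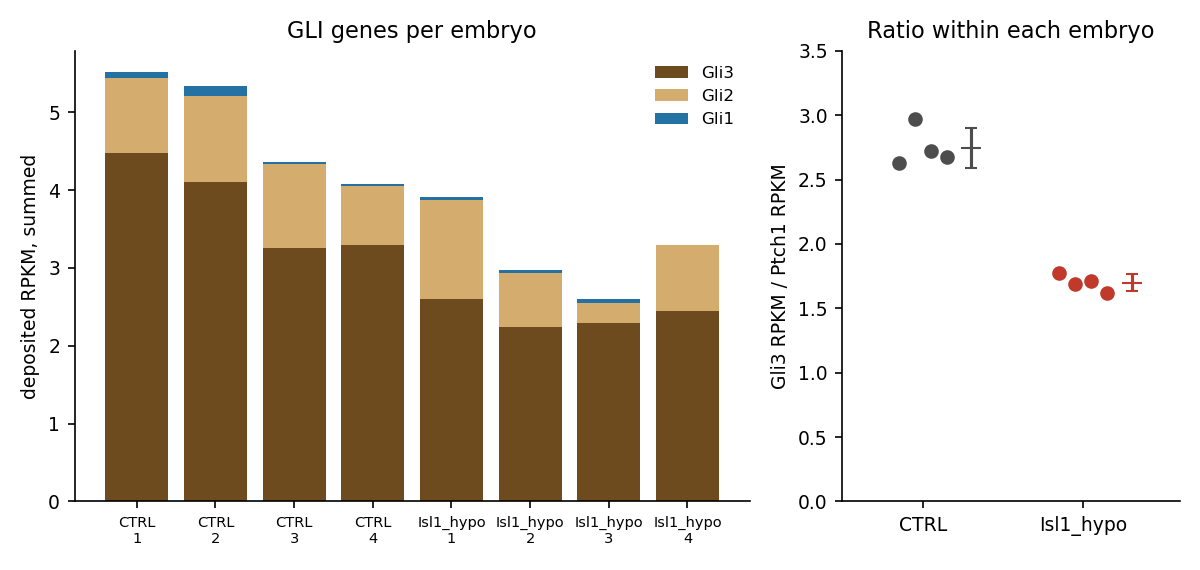
Left, deposited RPKM of Gli3, Gli2 and Gli1 stacked for each embryo; right, the ratio of Gli3 to Ptch1 RPKM in each embryo with the mean ± SD of the group. Gli3 forms the largest part of every bar, and the ratios are 2.63 to 2.97 in CTRL and 1.62 to 1.78 in Isl1_hypo.

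The remaining readouts were close to the limit of detection and were removed by the filter. Gli1 (chr10:126766945-126778645), an activator that is itself a target of the pathway, had 13, 30, 7 and 6 counts in CTRL and 4, 5, 12 and 0 counts in Isl1_hypo. These are 0.128 to 0.738 CPM and at most 0.379 CPM, with CTRL replicate 2 the highest. Without the filter the log2 fold change was −0.89 (95% interval −3.35 to 1.58, adjusted p = 0.777, edgeR), and the exact permutation test gave p = 0.4. Exons of Gli1 overlap those of Arhgap9 on the opposite strand, which had 90 counts over the 8 libraries, and reads of the 2 genes could not be separated because strand was ignored. Hhip (chr8:82490014-82581905), the membrane inhibitor that binds the ligands, had 6, 56, 2 and 55 counts in CTRL and 30, 1, 0 and 1 counts in Isl1_hypo. Both groups held high and low embryos, and the highest level, 1.63 CPM, was that of Isl1_hypo replicate 1. Its log2 fold change without the filter was −0.78 (95% interval −3.78 to 2.21, adjusted p = 0.853, edgeR), and the exact permutation test gave p = 0.343. No difference between the groups was detected for Gli1 or Hhip, whose intervals are wide, and the spread between embryos was 76.8% and 96.6% of the mean in CTRL and 79.3% and 189% in Isl1_hypo.

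The embryo with the most Hhip, Isl1_hypo replicate 1, also had the highest sum of epithelial markers. Of the 14 epithelial markers, 5 were tested and 4 of these (Epcam, Krt8, Krt18 and Krt19) were higher in Isl1_hypo at an unadjusted p under 0.05, with 0 after adjustment (edgeR). Among all tested genes, 5.69% were higher at that unadjusted threshold. For Epcam, replicate 1 was at 9.83 CPM and the other Isl1_hypo embryos at 0.316 to 1.87 CPM, against 0.128 to 0.983 CPM in CTRL. The summed level of the 14 markers was 96.1 to 174 CPM in CTRL and 179 to 391 CPM in Isl1_hypo. Most of it in every library came from the keratin genes Krt8, Krt18 and Krt19. In Isl1_hypo replicate 3 the sum was 326 CPM, with Cdh1 at 0 and Epcam at 0.316 CPM. Krt19 was highest in replicate 3, at 132 CPM. In Isl1_hypo replicate 1 Cldn6 was at 38.5 CPM and Esrp1 at 6.03 CPM, against at most 0.199 and 0.253 CPM in the other libraries. The endodermal factors Foxa1, Foxa2, Nkx2-1 and Pax1 were at or below 0.272 CPM in every library. That highest value was Foxa2 in Isl1_hypo replicate 1, with 5 counts against 0 or 1 in the other libraries. The part of epithelial cells in the Hhip counts was not tested. Without Isl1_hypo replicate 1, Hhip had 0 or 1 count in each Isl1_hypo embryo, and CTRL replicates 1 and 3 had 6 and 2 counts.

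Of the 6 tested genes of the pathway, 0 passed an adjusted p of 0.05 by edgeR, against 0.269% of all tested genes (0.123% lower and 0.145% higher in Isl1_hypo). At an unadjusted p under 0.05 there was 1 of 6, Gli3, against 11.9% of all tested genes. DESeq2 and limma-voom each called 1 of the 6, again Gli3, where they called 2.32% and 0.973% of all genes (1.24% and 0.458% as lower). The groups did not overlap for 1 of the 6, against 8.5% of all genes. Among the readouts, 1 of 3 could be tested, Ptch1 with a log2 fold change of 0.06. The 5 tested components of the other 6 had a median log2 fold change of −0.34, from −0.63 (Gli3) to 0.28 (Gas1), and 4 of the 5 were negative. This median was −0.67 without Isl1_hypo replicate 1 and −0.05 without Isl1_hypo replicate 3. The median over all tested genes was 0.0057. Readouts and other components were not compared by a test. Without the filter, which brings in Gli1 and Hhip with their wide intervals, the median was −0.78 for the readouts and −0.35 for the other components, so the order of the medians turned.

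**Figure D3:**
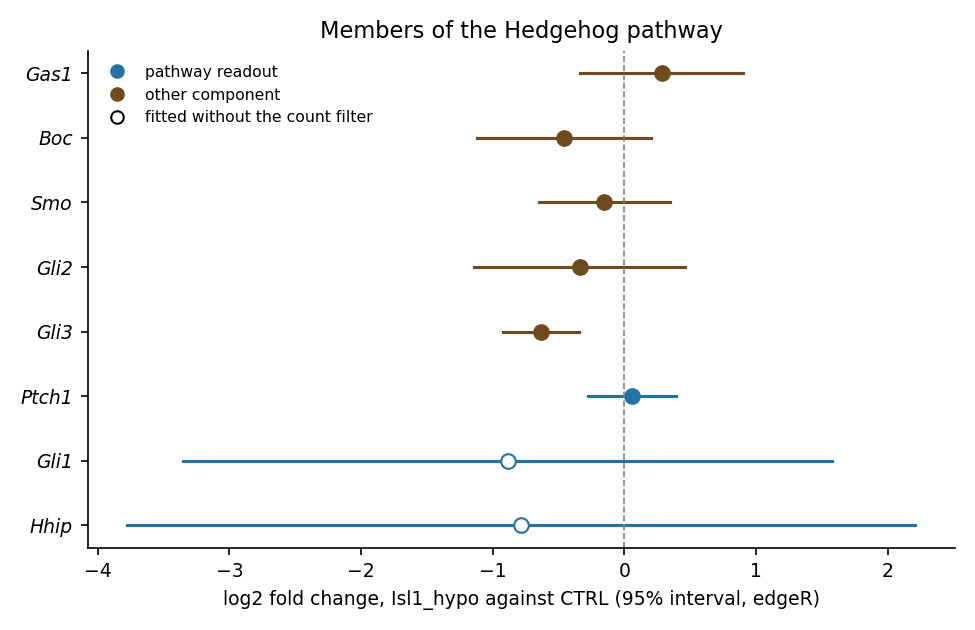
Log2 fold change of Isl1_hypo against CTRL by edgeR (points) with 95% intervals (lines), for the readouts in blue and the other components in brown. Open points are Gli1 and Hhip, fitted without the count filter, whose intervals run from −3.35 to 1.58 and from −3.78 to 2.21. The interval of Gli3, −0.92 to −0.34, is the one that does not include 0.

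The upstream sequences of Ptch1 and Gli3 are shown because Ptch1 is the classical target of GLI binding and Gli3 is the GLI gene whose groups did not overlap. RefSeq windows of 250 bases before to 50 after the transcription start were matched for 6 of the 9 genes (Ptch1, Smo, Gli2, Gli3, Hhip and Gas1). The sequences below are the 250 bases before the start on GRCm38.p6, 5′ to 3′ on the strand of the gene, at chr13:63565736-63565985 (minus strand) for Ptch1 and chr13:15463473-15463722 (plus strand) for Gli3. Capitals mark one of several equally close matches to the GLI consensus GACCACCCA on either strand, with 3 of 9 bases different. There were 4 such matches in Ptch1 and 7 in Gli3.
Ptch1: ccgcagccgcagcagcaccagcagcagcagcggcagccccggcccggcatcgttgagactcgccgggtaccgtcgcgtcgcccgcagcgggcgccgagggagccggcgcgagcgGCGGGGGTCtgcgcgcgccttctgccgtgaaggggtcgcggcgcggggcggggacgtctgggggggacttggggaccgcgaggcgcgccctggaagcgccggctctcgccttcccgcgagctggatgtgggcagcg
Gli3: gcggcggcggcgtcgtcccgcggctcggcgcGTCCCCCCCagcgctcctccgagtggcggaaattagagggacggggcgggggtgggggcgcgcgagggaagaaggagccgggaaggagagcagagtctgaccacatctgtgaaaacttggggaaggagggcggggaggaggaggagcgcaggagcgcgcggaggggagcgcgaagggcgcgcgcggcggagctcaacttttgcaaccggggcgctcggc
None of the 6 windows held the consensus GACCACCCA or its core CCACCCA, which is part of the consensus, on either strand. Over all 32851 windows, 0.253% held the consensus and 9.3% the core. In 98.6% of them the 250 bases before the start held a match at least as close as those of Ptch1 and Gli3. The GC content was 78.4% for Ptch1 and 72.8% for Gli3. A match or its absence in these windows says nothing on binding by GLI factors, whose sites often lie far from the start.

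A list of 49 further genes of the pathway was examined by role, of which 45 were tested. By edgeR, 0 of the 45 had an adjusted p under 0.05, against 0.269% of all tested genes, and the count was also 0 by DESeq2, by limma-voom and in the other alternatives. At an unadjusted p under 0.05 there were 8 (17.8%), 6 lower and 2 higher, against 11.9% of all tested genes (6.17% lower and 5.69% higher). The median log2 fold change was −0.0021, with 22 genes positive and 23 negative. The groups did not overlap for 3 genes (6.67%, against 8.5% of all genes), which were Scube1 (lower), Arrb1 and Spop (higher), the last an adaptor of GLI protein degradation.

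Among genes for ligands and their release and spread, Scube1, whose relatives release lipid-modified ligands, had the lowest p. It was at 31.7, 20.3, 22.4 and 19.8 CPM in CTRL and 15.4, 13.8, 13.6 and 18.6 CPM in Isl1_hypo. Its log2 fold change was −0.62 (95% interval −1.02 to −0.21, unadjusted p = 0.00663, adjusted p = 0.236, edgeR), and each Isl1_hypo embryo was below each CTRL embryo. The glypican gene Gpc3, which restrains ligand activity at the cell surface, was at 774 ± 140 CPM in CTRL and 611 ± 110 CPM in Isl1_hypo (SD, n = 4), a log2 fold change of −0.34 (adjusted p = 0.419, edgeR). Among the reception genes, edgeR gave a log2 fold change of −0.24 (adjusted p = 0.634) for Cdon. Disp1, which releases ligands, was listed at 0 in all libraries. Its 5 adjoining genes on one side, Brox, Aida, Mia3, Taf1a and Hhipl2, were also at 0 and, like Disp1, are not in the GENCODE annotation of mm9. Ccdc185, on the other side, is not in it either and had 11 counts. Whether Disp1 could be counted is therefore not known, and its value was not read as a measurement.

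In the control of Smo, Arrb1, which encodes a beta-arrestin that takes part in Smo transport, was at 19.8, 19.6, 16.2 and 19.8 CPM in CTRL and 25.6, 24.5, 24.6 and 27.1 CPM in Isl1_hypo. Every Isl1_hypo embryo was above every CTRL embryo, and the log2 fold change was 0.43 (95% interval 0.15 to 0.72, unadjusted p = 0.00593, adjusted p = 0.229, edgeR). Iqce, a partner of the ciliary Evc complex, had a log2 fold change of −0.96 (95% interval −1.77 to −0.15, adjusted p = 0.331, edgeR), and its level was 1.71 CPM in Isl1_hypo replicate 3 and 5.47 to 6.84 CPM in the other Isl1_hypo embryos, against 6.69 to 11.7 CPM in CTRL. In the control of GLI proteins, the ciliary kinesin gene Kif7 was at 8.79 ± 3.06 CPM in CTRL and 5.33 ± 1.26 CPM in Isl1_hypo (SD, n = 4), a log2 fold change of −0.73 (adjusted p = 0.339, edgeR). The kinase gene Stk36 had one of −0.57 (adjusted p = 0.414, edgeR).

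Of 10 cilium genes, 1 had an unadjusted p under 0.05. This was the transport gene Ift122 at 52.4 ± 3.42 CPM in CTRL and 42.1 ± 7.06 CPM in Isl1_hypo (SD, n = 4), or −0.32 on the log2 scale (adjusted p = 0.4, edgeR). The next by p was Arl13b, a ciliary GTPase gene, at 0.26 on the log2 scale (adjusted p = 0.539, edgeR). Of the genes that respond to the pathway in other tissues, 5 of 7 were tested and had a median log2 fold change of 0.19, all of them positive by edgeR. Of these, Osr1 was at 6.57 CPM in Isl1_hypo replicate 1 and at 0.112 to 0.790 CPM in the other Isl1_hypo embryos, against 0.894 to 3.20 CPM in CTRL. Its log2 fold change was 0.31 by edgeR and −1.23 by limma-voom. The cyclin gene Ccnd2 was at 1179 ± 169 CPM in CTRL and 1569 ± 268 CPM in Isl1_hypo (SD, n = 4), a log2 fold change of 0.41 (unadjusted p = 0.0152, adjusted p = 0.303, edgeR). Ccnd1 had one of 0.14 (adjusted p = 0.637, edgeR). The mesenchymal response genes Foxf1 and Foxf2 were near the limit of detection and were removed by the filter. Foxf1 had 1, 13, 1 and 2 counts in CTRL and 10, 6, 0 and 6 in Isl1_hypo. Foxf2 had 9, 17, 6 and 21 counts in CTRL and 0, 0, 0 and 8 in Isl1_hypo. Without the filter, edgeR gave log2 fold changes of 1.15 (adjusted p = 0.748) for Foxf1 and −2.14 (adjusted p = 0.581) for Foxf2.

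**Figure D4:**
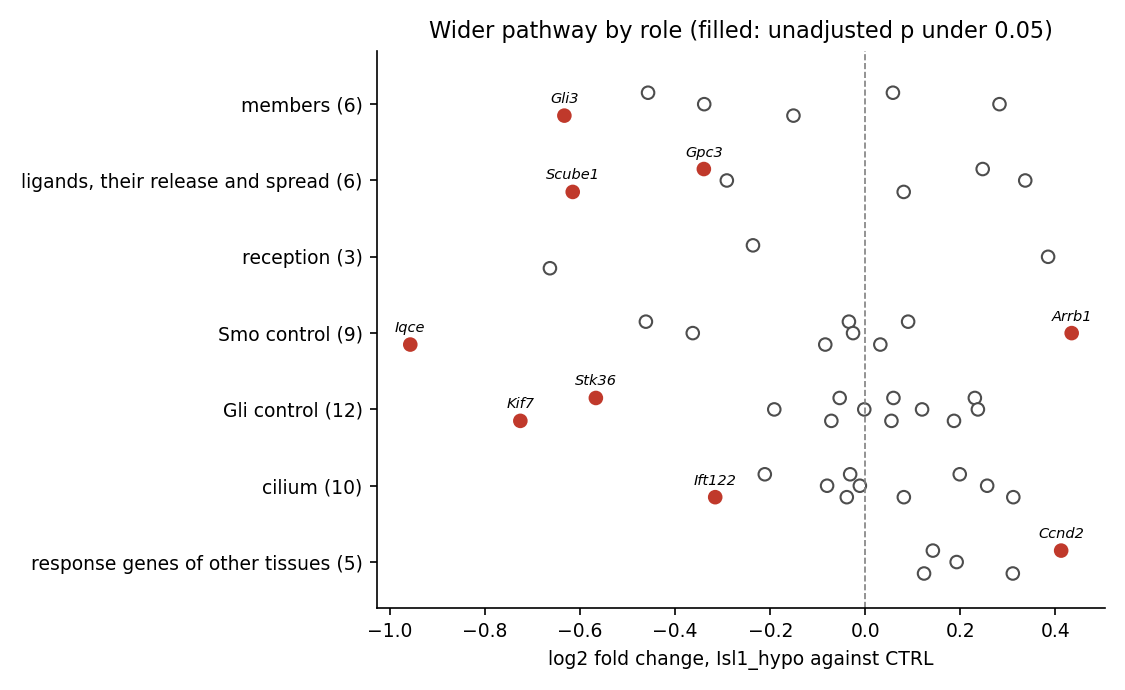
Log2 fold change of Isl1_hypo against CTRL by edgeR for the 6 tested genes of the pathway core and the 45 tested genes of the wider list, in rows by role with the number tested. Filled points, with symbols, had an unadjusted p under 0.05. These are Gli3 and 8 genes of the wider list, from −0.96 (Iqce) to 0.43 (Arrb1), and none of them had an adjusted p under 0.05.

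The genes whose pattern over the 8 libraries was closest to each readout were found by the root-mean-square difference of centred log2 CPM, among genes at a mean of at least 5 CPM. For Ptch1 these were Zfp740 (0.0406), Slc6a6 (0.0570) and Trmt1l (0.0612), whose own log2 fold changes were 0.09, 0.08 and 0.09. No gene came as close to Gli1, for which Kit was the nearest at 0.628, followed by Zfp61 (0.661) and Tnip2 (0.696). For Hhip the nearest were Rprm (1.004), Col1a2 (1.30) and Arhgap8 (1.30). The distances for Gli1 and Hhip are of the order of their own spread over the libraries (SD of log2 CPM 1.04 and 1.88), whereas that of Ptch1 was 0.143.

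Other marker lists were measured beside the pathway. Of 9 markers of pharyngeal and second heart field mesoderm, 8 were tested and 1 passed after adjustment, against 0.269% of all tested genes (edgeR). This was Fgf10, with 25.0 to 26.0 CPM in CTRL and 11.9 to 16.2 CPM in Isl1_hypo. The summed level of this list was 32.4 to 72.4 CPM in CTRL and 54.1 to 64.5 CPM in Isl1_hypo. The sum was 572 to 660 CPM in CTRL and 469 to 613 CPM in Isl1_hypo for endothelium and endocardium. Of these 6 markers, 2 (Pecam1 and Cdh5) were lower without overlap, against 4.44% of all tested genes, and 0 passed after adjustment (edgeR). For neurons and notochord the sum was 48.0 to 73.2 CPM in CTRL and 26.3 to 49.2 CPM in Isl1_hypo. All 9 red cell genes had positive log2 fold changes (edgeR). Some of them share reads with near-identical copies, and Hba-a1 and Hba-a2 had the same counts, so the 9 are not separate measurements. At an unadjusted p under 0.05 there were 7, against 11.9% of all tested genes, and 0 after adjustment (edgeR). Their sums were 2020 to 11897 CPM in CTRL and 11870 to 25516 CPM in Isl1_hypo. With the globin genes removed, the log2 fold change of Gli3 was −0.64 (adjusted p = 0.0807, edgeR).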

How the data were processed

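The data were 8 poly(A) RNA libraries, each from a single embryo, 4 per group, sequenced on BGISEQ-500 and assigned to groups by the sample labels. Replicates are therefore separate embryos. The authors aligned reads with STAR to mm9 (intron lengths 20 to 500000) and counted exon reads per RefSeq transcript with HOMER on both strands, and the deposited counts are whole numbers without normalization. The authors also deposited RPKM values, made with edgeR from these counts, which were used only to compare levels between genes. Columns of the authors' own DESeq2 comparison (mean signal, log2 fold change, its error, statistic and p-values) were not used.

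Of 31507 transcripts, the one with the highest mean count was kept for each of 20701 symbols. R 4.3.3 was used with edgeR 4.0.16 (filterByExpr, TMM, glmQLFit and glmQLFTest without covariates, 13769 genes). P-values were adjusted by Benjamini-Hochberg over all tested genes at a threshold of 0.05. CPM used TMM-scaled totals, and log2 CPM a prior count of 2. Single values were compared by exact two-sided permutation tests over 70 assignments. A count of 0 was taken to allow 3 counts per library. Reads carry no molecular identifiers, so such limits cover counting error only. A library was taken to express Y-linked genes at a summed level over 1 CPM. DESeq2 1.42.0 and limma 3.58.1 (voom) served as alternatives, besides other size factors, filters, transcripts, a replicate block, globin removal and leaving out libraries. The 3 tests were checked on simulated counts with known fold changes. Gene positions are from the GENCODE annotation of mm9 and promoter windows from RefSeq (GRCm38.p6).

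The genes, the wider list and the 8 marker lists were chosen with earlier results of these data known. By the naming rule, Isl1 came first, then every gene of the pathway core, up to 2 genes per role of the wider list by unadjusted p, markers that moved with a member, and the 3 closest patterns to each readout. Dhh, Ihh, Disp1, Spop, Osr1, Foxf1 and Foxf2 were named beyond it, after their values were seen. The values of 1 gene that the rule would name are not reported here.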

Additional observations from a re-analysis of the deposited data

Results flagged for a closer look

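Within each group of 4 embryos, every pathway gene and marker list was checked for a library far from the rest. Of 34 groups examined, 2 had one, where chance gives 1.7. The first was Hhip in Isl1_hypo replicate 1, at a log2 CPM of 0.757, with the other 3 Isl1_hypo embryos between −4.05 and −3.35. The second was the summed level of the epithelial markers in CTRL replicate 1, at 6.59 on the log2 scale. The other 3 CTRL embryos were between 7.39 and 7.44, and most of this sum was Krt8, Krt18 and Krt19.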

How the results depend on the processing

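The count of genes called depended on the test. DESeq2 called 319 genes and limma-voom 134, against 37 by edgeR, and each called 1 gene of the pathway core, Gli3 (log2 fold change −0.63 with adjusted p = 0.00156, and −0.59 with adjusted p = 0.0449). With the replicate block, edgeR called 0 genes, the log2 fold changes were −2.29 for Isl1 (adjusted p = 0.0722) and −0.62 for Gli3 (adjusted p = 0.173). Deviations of same-numbered embryos were uncorrelated (−0.0209 to 0.0219), which shows no large effect shared by them. With 4 embryos per group and no litter in the labels, these values cannot exclude a pairing. Leaving out each library gave 3 to 57 genes, fewest without CTRL replicate 2 and most without Isl1_hypo replicate 3. Counts were 6 and 4 without CTRL replicates 1 and 3, and 14 and 11 without Isl1_hypo replicates 2 and 4.

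Smo ranged from −0.30 to 0.050 on the log2 scale when single libraries were left out. It was positive without CTRL replicate 3 (0.050) or Isl1_hypo replicate 3 (0.012), and 0.078 without Isl1_hypo replicates 1 and 3 together, an alternative chosen after seeing the data. Without the filter on low counts, Gli1 and Hhip entered the median of the readouts, which moved from 0.06 to −0.78. Gli3 was negative in each of its 17 alternatives, and passed the threshold only by DESeq2 and limma-voom. Ptch1 lay between 1.62e-05 and 0.16. For the other differences between alternatives, the cause was not tested. Counts were 0 for Shh and at most 56 per library for Ihh, Gli1, Hhip, Foxf1 and Foxf2, so their levels are imprecise.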
